A study of Saccharomyces cerevisiae with 3 samples.

Results

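The PIR cell wall protein family of the budding yeast Saccharomyces cerevisiae was examined as 4 genes, PIR1 (YKL164C), PIR3 (YKL163W), HSP150 (YJL159W, also called PIR2) and CIS3 (YJL158C, also called PIR4). They were found by locus tag among the 6174 genes of the value table, and each had 1 row. All 3 arrays hybridised RNA of the strain labelled WSC1extMID2cyt, in the BY4741 background, against RNA of that same strain. One portion of a YEPD culture growing at 24 °C received caspofungin at 15 ng/ml, the other portion none, and both were collected 2 hours later. Caspofungin is an echinocandin drug that blocks the synthase of beta-1,3-glucan, the main structural polymer of the yeast wall. The genotype is thus shared by treated and untreated cells, and no array compares it with BY4741. How the strain was built, and whether it is 1 clone, is not given in the sources used here.

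PIR proteins (proteins with internal repeats) are secreted mannoproteins of the outer wall. A glutamine in the repeat is joined to beta-1,3-glucan by an ester bond that mild alkali breaks, which sets them apart from wall proteins attached through a GPI remnant and beta-1,6-glucan. On their way out of the cell they are O-mannosylated and cut by the protease Kex2. In wild-type cells their genes are known targets of the cell wall integrity pathway, in which Wsc1, Mid2 and related sensors signal through Rho1, protein kinase C and the MAP kinase Slt2 to the transcription factor Rlm1. Pir1 is found at bud scars, HSP150 was named for its induction by heat shock, and PIR1, PIR3 and CIS3 are also known as genes transcribed around the M/G1 boundary of the cell cycle.

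The values are the authors' log ratios, 1 per row and array, with base 2 assumed. No source used here states which portion is the numerator, so values are given as positive or negative. Turning the sign of the whole table would exchange these sides. The arrays are numbered 1, 2 and 4 in the labels. Caspofungin-treated RNA carried Cy3 on array 1 and Cy5 on arrays 2 and 4. Array 1 holds 2520 ratios, array 2 holds 1924 and array 4 holds 741, and 585 genes had all 3 values. Across genes, r was 0.58 between arrays 1 and 2 (1863 genes), 0.53 between arrays 2 and 4 (590 genes) and 0.07 between arrays 1 and 4 (616 genes). Signal strength was not used here, and the small number of arrays sets the precision. The design describes 2 cultures, each on a pair of arrays with the dyes exchanged. Array 1 therefore shares a culture with array 2 or array 4, and an SD over arrays mixes technical with biological spread. Less RNA per cell and fewer cells that transcribe a gene cannot be told apart in RNA of a whole culture.

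HSP150 and CIS3 were positive on all 3 arrays, PIR3 was positive on both arrays that measured it, and PIR1 was positive on array 4 and close to 0 on arrays 1 and 2. HSP150 had a log2 ratio of 0.36 on array 1, 0.83 on array 2 and 1.13 on array 4, a mean of 0.77 ± 0.39 (SD, n = 3 arrays). CIS3 had 0.25 on array 1, 0.63 on array 2 and 1.03 on array 4, a mean of 0.63 ± 0.39 (SD, n = 3 arrays). Both genes were thus lowest on array 1 and highest on array 4. If the base is 2, the HSP150 ratios span 1.28-fold to 2.19-fold and those of CIS3 1.19-fold to 2.04-fold. PIR3 had 0.57 on array 1 and 0.53 on array 2, a mean of 0.55 ± 0.034 (SD, n = 2 arrays), with no value on array 4. Its values were close to each other. Of the genes with values on arrays 1 and 2, 31.4% also had one on array 4. PIR1 had 0.0027 on array 1, -0.054 on array 2 and 1.21 on array 4, a mean of 0.39 ± 0.71 (SD, n = 3 arrays). Its spread exceeded its mean, and without array 4 the mean was -0.026, on the other side of 0. Had array 1 alone been deposited in the opposite direction, the means would be 0.53 for HSP150, 0.47 for CIS3, 0.38 for PIR1 and -0.024 for PIR3.

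**Figure D1:**
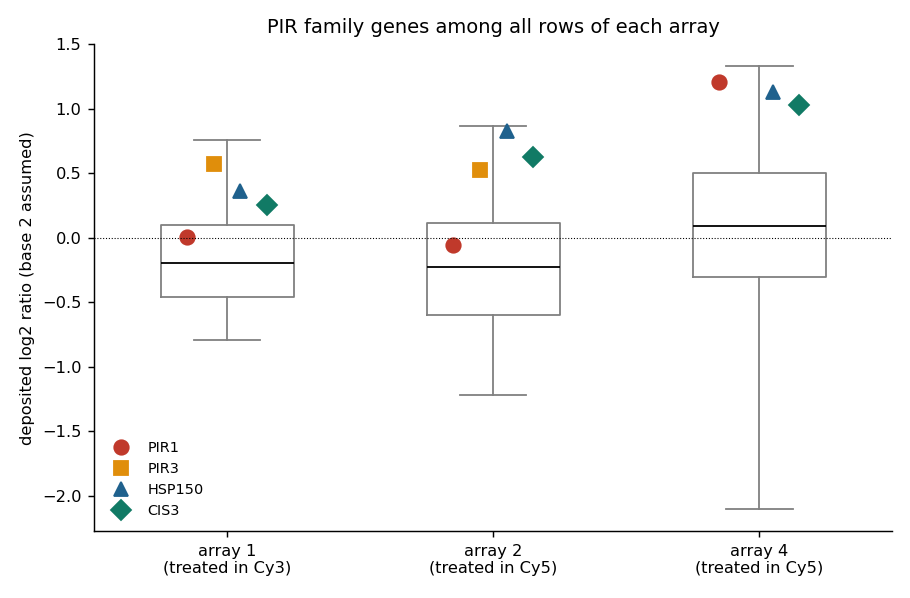
Deposited log2 ratio (vertical axis) of the 4 PIR genes (symbols) on each array, over a box for all rows of that array (median, quartiles, and whiskers at the 5th and 95th percentiles). HSP150, CIS3 and PIR3 lie above the box wherever measured. PIR1 lies inside the box on arrays 1 and 2 and reaches 1.21 on array 4.

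Set against the whole of each array, HSP150, CIS3 and PIR3 ranked high wherever measured, and PIR1 did so on array 4 only. Array 1 had a median of -0.20 and array 2 of -0.22, with 32.4% and 32.2% of rows above 0, while array 4 had a median of 0.092 and 56.7% of rows above 0. HSP150 lay above 87.0% of the 2520 rows of array 1, 94.4% of the 1924 rows of array 2 and 92.3% of the 741 rows of array 4. CIS3 lay above 82.6%, 91.9% and 90.7% of the rows of these arrays. PIR3 exceeded 92.4% of rows on array 1 and 90.1% on array 2, the highest of the family on array 1. PIR1 stood above 67.7% on array 1, 63.9% on array 2 and 93.5% on array 4, where it was the highest of the family. All 4 genes lay above the array median wherever they were measured, as did 30.7% of the 1899 genes with at least 2 values. PIR3, HSP150 and CIS3 lay above the 75th percentile of the rows on every array that measured them, which 12.3% of those genes did. Before any comparison with the array, 3 of 4 members were positive on every array measured, against 18.5% of the 1899 genes. The median of the members' means was 0.59, and that of all genes with at least 2 values was -0.19. These means rest on unlike sets of arrays, since 585 of the 1899 genes had all 3 values. Over arrays 1 and 2 alone the members' median was 0.49 (range -0.026 to 0.59) and that of all genes -0.22. Relative to the array median, HSP150 stood at 1.05 on array 2 and 1.04 on array 4. CIS3 stood at 0.85 and 0.93 on these arrays, and PIR1 at 0.17 and 1.12. Without subtracting the median, a log2 ratio of at least 1, or 2-fold, was reached by PIR1, HSP150 and CIS3 on array 4. There 9.72% of rows reached it. No member reached it on array 1 (3.57% of rows) or array 2 (3.79%). These counts describe 4 genes of one family and are not a test.

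No member passed the test against 0. Each gene's ratio was fitted with limma, once with array 1 averaged with array 2 and once with array 1 averaged with array 4, and the larger p was kept. Of 585 genes tested, 0 were called (0%), while 67 had an unadjusted p under 0.05. HSP150 and CIS3 were among these 67, at ranks 33 and 65. Their Benjamini-Hochberg adjusted p from limma was 0.41 each. PIR1 ranked 250, with a limma adjusted p of 0.64. These p-values and the intervals below rest on moderation, in which limma draws each gene's variance toward that of all genes. Without moderation the unadjusted limma p was 0.19 for HSP150 (rank 86) and 0.24 for CIS3 (rank 126). Only 7 genes were then under 0.05. With array 1 averaged with array 2, and then with array 4, the estimates were 0.86 and 0.79 for HSP150. They were 0.73 and 0.63 for CIS3 and 0.59 and 0.28 for PIR1. These estimates weight the 2 cultures equally and are not the means over arrays. The 95% interval for HSP150 was 0.15 to 1.58 with arrays 1 and 2 averaged and 0.40 to 1.17 with arrays 1 and 4 averaged. For CIS3 it was 0.0073 to 1.46 and 0.25 to 1.02. For PIR1 it was -0.32 to 1.50 and -0.35 to 0.90. Both span 0, and the first extends past 2-fold. PIR3, without a value on array 4, was tested in alternative fits only. In the fit of 1899 genes with at least 2 values, which counts each array separately and called 48 genes (2.53%), its limma adjusted p was 0.21. Without array 4 its limma adjusted p was 0.13. In the fit of 1899 genes the adjusted p was 0.11 for HSP150, 0.15 for CIS3 and 0.39 for PIR1. Where arrays share a culture, the p-values of these alternative fits are too small. No member passed in any alternative fit, where the share of all genes called was 0.342% with 3 separate replicates, 2.88% without array 1 and 11.2% without array 4. Several other alternatives called no gene at all, so no member could pass in them.

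**Figure D2:**
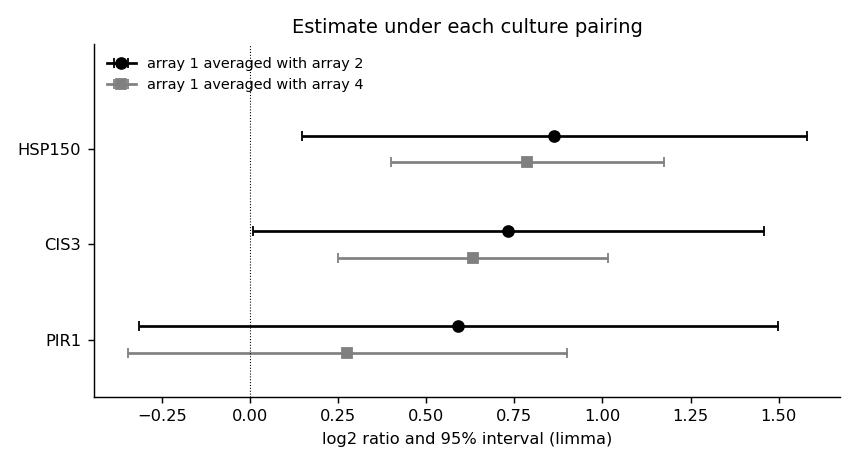
Log2 ratio (horizontal axis) with its 95% interval from limma for the 3 PIR genes measured on all arrays, under each assignment of array 1 to a culture. These intervals are for single genes, rest on limma's moderated variance and are not adjusted for 585 tests. Those of HSP150 and CIS3 lie above 0 and that of PIR1 spans 0 under both assignments.

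HSP150 and CIS3 were lower on array 1 than on both arrays of the other dye orientation. PIR1 was not, at 0.0027 on array 1 and -0.054 on array 2. The orientation difference given for PIR1 therefore comes from array 4 (1.21). The mean of arrays 2 and 4 (treated RNA in Cy5) minus array 1 (treated RNA in Cy3) was 0.62 for HSP150, 0.58 for CIS3 and 0.57 for PIR1. Over the 585 genes the median of this difference was 0.11, and the 3 members exceeded 83.2%, 80.5% and 80.3% of genes. Within the orientation of array 1 HSP150 was at 0.36, and within the other orientation it averaged 0.98. The corresponding values of CIS3 were 0.25 and 0.83. Each orientation thus gave both genes the same side. For PIR3 array 2 minus array 1 was -0.048. The first orientation holds a single array, and the part of the dye in these differences was not tested.

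PIR1 had the larger difference between arrays 2 and 4, which share their orientation. Its value on array 4 exceeded that on array 2 by 1.26, more than in 94.6% of the 590 genes with both values, whose median was 0.22. The same difference was 0.31 for HSP150 and 0.40 for CIS3, above 55.4% and 63.2% of genes. Between arrays 1 and 2 it was HSP150 and CIS3 that differed, by 0.47 and 0.38, where the median of 1863 genes was -0.088. PIR1 and PIR3 moved by -0.057 and -0.048 there. Of 18 genes, PIR1 included, that lay within 0.1 of 0 on both arrays 1 and 2, 2 reached at least 1 on array 4. PIR1 had the highest value of the 18, whose median on array 4 was 0.21. That place depends on the window: GIC2, outside it at -0.18 on array 2, had 1.22 on array 4.

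**Figure D3:**
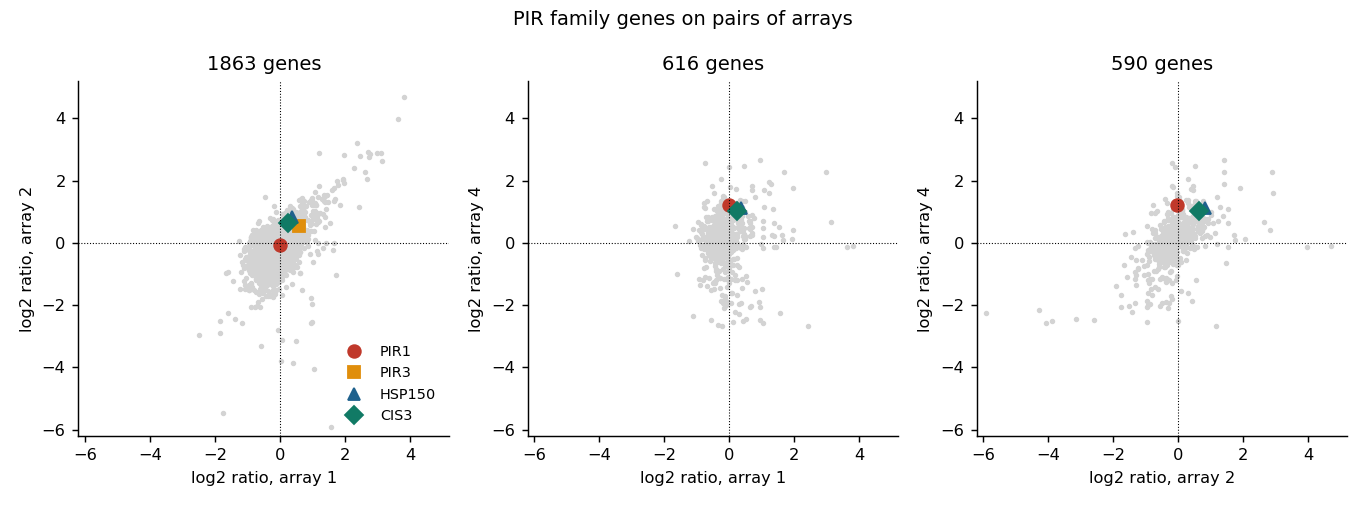
Log2 ratios of all genes with a value on both arrays of a pair (grey points, 1 per gene), with the PIR genes as coloured symbols. HSP150 and CIS3 lie close together in each panel, and PIR1 lies near 0 on arrays 1 and 2 but at 1.21 on array 4. PIR3 has no value on array 4 and appears in the first panel.

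The members fall into neighbouring pairs on the chromosomes. PIR1 and PIR3 are next to each other on chromosome XI, and the C and W endings of their locus tags mark them as transcribed away from each other, with their 5′ ends facing. HSP150 and CIS3 are next to each other on chromosome X, with tags that mark them as transcribed toward each other. HSP150 exceeded CIS3 by 0.11 on array 1, 0.20 on array 2 and 0.11 on array 4, a mean difference of 0.14 ± 0.053 (SD, n = 3 arrays). This was the same order on each array, but 3 arrays cannot give a two-sided exact sign-flip p below 0.25, which is the value obtained (adjusted p = 0.50 over 3 pairs of members). The sign-flip p-values count the arrays as independent, although arrays share a culture under the design, so they are too small. PIR1 minus PIR3 was -0.57 on array 1 and -0.58 on array 2, so the divergent pair was apart by a nearly constant amount where both were measured. PIR1 was lower than HSP150 by 0.36 on array 1 and by 0.88 on array 2 but higher by 0.075 on array 4 (exact p = 0.50). It was lower than CIS3 by 0.25 and 0.68 and then higher by 0.18 (exact p = 0.50). PIR3 was above HSP150 by 0.21 on array 1 and below it by 0.30 on array 2, and likewise above CIS3 by 0.32 and then below it by 0.10. The order of the family therefore differed between arrays, apart from HSP150 over CIS3 on 3 arrays and PIR3 over PIR1 on 2.

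As a description of closeness, the root mean square difference over arrays was set beside that of all adjacent genes, the members' own pairs included. It was 0.15 for HSP150 and CIS3 over 3 arrays, and 0 of the 18 convergent pairs measured on all arrays were closer. The median of these 18 pairs was 0.50. Of 82 adjacent pairs of any orientation measured on all arrays, 3 were closer than HSP150 and CIS3. Over arrays 1 and 2 the value was 0.16, with 10 of 174 convergent pairs closer and a median of 0.52. For PIR1 and PIR3 it was 0.58 over arrays 1 and 2, larger than in 125 of 183 divergent pairs, whose median was 0.44. The gene on the far side of CIS3 is FAR1, an inhibitor of the cell cycle kinase in mating, at 0.34 on array 1 and 0.18 on array 2. PIR5 (YJL160C), a related PIR gene on the far side of HSP150, had no value, nor had YKL162C beside PIR3. Probe sequences were not used here, and PIR genes resemble each other, so signal shared between members by cross-hybridisation was not tested.

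**Figure D4:**
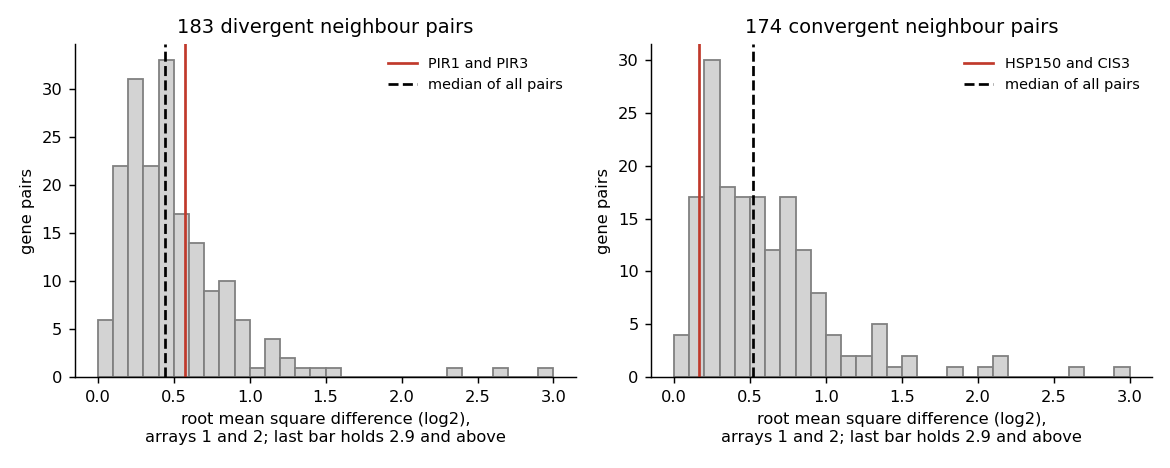
Number of neighbouring gene pairs (vertical axis) by the root mean square difference of their log2 ratios over arrays 1 and 2 (horizontal axis), for genes transcribed away from each other (left) and toward each other (right). The red line marks PIR1 and PIR3 at 0.58 and HSP150 and CIS3 at 0.16, and the dashed line marks the median of each orientation, 0.44 and 0.52.

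Among all genes, the patterns most like each member were found by the same root mean square difference. For HSP150 over 3 arrays, CIS3 ranked 2 of 584 genes, after ARC15, a subunit of the Arp2/3 actin complex, at a difference of 0.097. The others were YOR248W, the weak acid exporter gene PDR12 and the alcohol dehydrogenase gene ADH6, up to 0.23. For CIS3 the nearest were ARC15 at 0.11 and CCW12, a GPI-anchored wall mannoprotein, at 0.13, then YEL077C, HSP150 at rank 4 and the trehalose synthesis gene TPS1. On arrays 1, 2 and 4 CCW12 itself had 0.19, 0.54 and 0.82, in the same order as CIS3. For PIR1 the nearest were YBR259W at 0.060, the Cdc42 effector gene GIC2 at 0.073, YJR115W, PXP1 and the splicing helicase gene PRP5. CIS3 ranked 72 and HSP150 ranked 139 from PIR1. For PIR3 over arrays 1 and 2, the nearest of 1862 genes were YPR127W, the serine and threonine deaminase gene CHA1, PRM4, YMR119W-A and the 6-phosphogluconate dehydrogenase gene GND2. All 5 were within 0.046, and CIS3 ranked 89, HSP150 103 and PIR1 461. Likeness over 2 or 3 arrays rests on few values, and arrays may share a culture.

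Other genes of the wall stress pathway were set beside the family in lists that leave the 4 members out. The lists overlap, with SLT2, CWP1 and EGT2 among the genes that stand in more than a single list, so their counts are not independent. No list gene measured on all arrays passed the limma test, which called 0 of 585. Of 16 wall integrity response genes, 11 had at least 2 values, of which 10 had positive values throughout and the median of means was 1.13. The PIR genes, at 0.39 to 0.77, lay below most of them. Left out of these counts were SPI1 at -2.69 and BGL2 at 0.44, each measured on array 4 only. NCW2, a wall protein gene, averaged 1.88 ± 0.095 and PUN1, a plasma membrane protein gene, 1.52 ± 0.31 (SD, n = 3 arrays each). CHS3, the catalytic subunit of chitin synthase III, averaged -0.20 ± 0.37 (SD, n = 2 arrays). SLT2, the pathway's kinase, had 0.75 on array 1 and 0.42 on array 2. The factor gene RLM1 and the sensor gene MID2 had no value, and WSC1 (SLG1 in the reference) had 0.17 and -0.27 on arrays 1 and 2. The signalling list as a whole had 5 genes with at least 2 values, 2 of them positive and 1 negative on every array, and a median of -0.050. Among all 1899 genes with at least 2 values, 18.5% were positive on every array, and the median was -0.19.

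The wall to which PIR proteins bind, and the enzymes that mature them, were covered in part. FKS1, the main glucan synthase gene, had no value, and GSC2, the alternative catalytic subunit, had 0.47, 0.43 and 0.16 on arrays 1, 2 and 4. Its highest array was thus array 1, where HSP150 and CIS3 were lowest. Among the 8 glucan genes measured on 2 or 3 arrays, 3 kept to the positive and 1 to the negative side, and the median was 0.19. The 3 positive genes, GSC2, CRH1 and RHO1, are also counted in the response or signalling list. Of 8 O-mannosylation and Kex2 genes, 1 was positive (12.5%) and 4 were negative, with a median of -0.14. This is near the whole set of 1899 genes, of which 351 were positive (18.5%) and 872 negative, with a median of -0.19. KEX2 itself had -0.43 on array 1 and -0.31 on array 2. The mannosyltransferase gene KTR1 had -0.48, -0.52 and -0.25 on arrays 1, 2 and 4. The PMT2 gene, of a protein O-mannosyltransferase that acts early, was positive at 0.067 and 0.25 on arrays 1 and 2. Of 9 GPI-anchored wall mannoproteins, 3 were positive and 2 negative on every array, with a median of -0.099. They ranged from -1.49 for EGT2 to 1.67 for CWP1.

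The remaining lists touch known regulation of the family. Of 10 M/G1 and daughter cell genes with at least 2 values, 9 were negative on every array measured, and their median was -0.55. The PIR median was 0.59, or 0.49 over arrays 1 and 2 alone. Only 2 of these 10 genes had all 3 values. SIC1, the inhibitor of S phase kinase, had -1.18 on array 1 and -0.95 on array 2, and the glucanase gene SCW11 had -1.07 and -1.49. SWI5, the gene of a transcription factor active at this boundary, had -0.36 and -0.53 on arrays 1 and 2. Among the 7 heat shock genes measured on 2 or 3 arrays, 5 kept to the positive and 1 to the negative side, and the median was 0.31. HSP42, a small heat shock protein gene, averaged 1.40 ± 0.12 and the disaggregase gene HSP104 0.66 ± 0.071 (SD, n = 2 arrays each), beside HSP150 at 0.59 on these arrays. Of the 1899 genes measured that often, 351 kept to the positive and 872 to the negative side. These lists were not tested as sets.

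**Figure D5:**
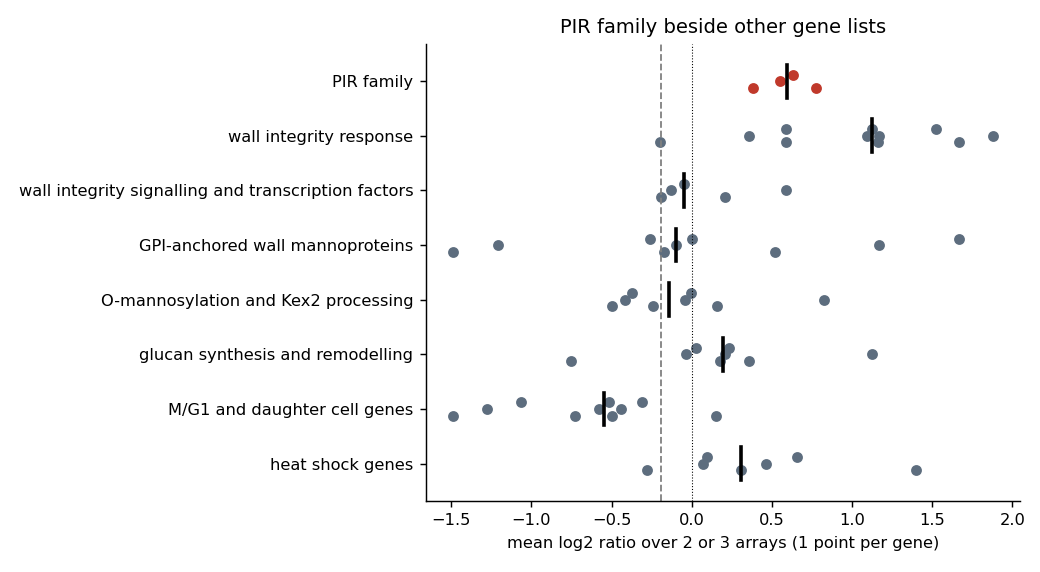
Mean log2 ratio over 2 or 3 arrays (horizontal axis) of each gene with at least 2 values, by list (1 point per gene), with list medians as black bars, 0 as the dotted line and the median of 1899 genes as the dashed line. The 4 PIR genes lie between 0.39 and 0.77, most wall integrity response genes lie higher, and 9 of the 10 M/G1 genes lie below 0.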

How the data were processed

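The deposited value table holds the authors' log2 ratios of the 2 channels of each array. No source used here gives the logarithm's base (base 2 was assumed), the direction, the spot filter, the normalization or the array build. Total RNA was labelled by reverse transcription with Cy3 or Cy5, per the labels' protocols. Of 6209 rows, 5654 were matched by locus tag and 57 by synonym to the RefSeq genes of S. cerevisiae assembly R64, which served for names and neighbours only. Rows of a gene were averaged. Array 1 was not turned, since its correlation with the other arrays was not below 0. The test was lmFit followed by eBayes in limma 3.58.1 under R 4.3.3, with 1 residual and 4.96 or 2.7 prior degrees of freedom, and Benjamini-Hochberg adjustment over 585 genes at a threshold of 0.05. It was tested on simulated data. Named genes were the members, their neighbours, the 5 nearest patterns per member, up to 4 genes for each of 7 lists, and GSC2, FKS1, SLT2, RLM1, SLG1 and MID2. Members and lists were chosen with earlier results of these data known. Alternatives were the culture pairing, dye term, centring, scaling, moderation, gene filter, the sign of array 1 and leaving out each array.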

Additional observations from a re-analysis of the deposited data

How the results depend on the processing

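HSP150 and CIS3 kept their positive side, without passing the threshold, in all 13 alternatives each. Both were positive on every array, so only centring, scaling or turning the sign of array 1 could have changed their side. The other alternatives could not test it. Leaving out 1 array gave 0.59 to 0.98 for HSP150, 0.44 to 0.83 for CIS3 and -0.026 to 0.61 for PIR1, which changed side without array 4 alone. The adjusted p over these alternatives ran from 0.11 to 0.93 for HSP150, 0.11 to 0.93 for CIS3, 0.39 to 0.99 for PIR1 and 0.13 to 0.21 for PIR3, which could be tested in 2 alternatives. PIR3 averaged 0.69 after centring, 0.77 after scaling and -0.024 with the sign of array 1 turned. The count of members past the threshold was 0 in every alternative. No gene at all was called under either pairing alone, centring, scaling, no moderation, robust moderation or the turned sign. The same held without array 2, so no member could pass in these fits. The count of all genes was 2 with arrays as separate replicates, 2 with a dye term and 48 with genes on at least 2 arrays. It was 17 without array 1, 0 without array 2 (28 at an unadjusted p under 0.05) and 209 without array 4, where both remaining arrays may come from 1 culture. More genes are tested there. The cause of the other changes was not tested. Each ratio already pairs treated with untreated RNA on the same array, so the test against 0 uses that pairing. No further pairing was possible because the arrays form 1 group.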
